A study of Mus musculus with 2 samples.

Results

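Granulocyte-monocyte progenitors (GMPs) are the marrow cells from which neutrophils and monocytes are formed. They were examined here in single-cell RNA-seq data from intact mouse femur with muscle and from fracture callus. The cells were chosen by their expression of 4 genes of the primary (azurophil) granule, *Mpo*, *Elane*, *Prtn3* and *Ctsg*. A cell was a member if these genes together held at least 1% of its unique molecular identifiers (UMIs, each a counted RNA molecule), with at least 500 genes detected and at most 10% of UMIs from mitochondrial genes. This gave 221 of 4502 kept cells, of which 7 were among 1207 kept cells of the intact library (0.580%, 95% interval 0.233 to 1.19) and 214 among 3295 of the callus library (6.49%, 5.68 to 7.39). Shares have exact Clopper-Pearson intervals and summed counts exact Poisson intervals, and both cover counting error only.

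In bone marrow, GMPs divide rapidly and express genes of the primary granule, among them those of its proteases and of myeloperoxidase. Cells on the neutrophil path then switch on *Cebpe* and *Gfi1* and make the proteins of secondary and tertiary granules. Those on the monocyte path depend on *Irf8* and *Klf4*. GMPs are classically isolated as cells with KIT, CD34 and high levels of the Fc-gamma receptors, without SCA1.

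Both libraries came from Clec3b.creERT2; Ai14.R26.tdTomato mice, in which tamoxifen given before surgery marks *Clec3b*-expressing cells and their progeny with tdTomato. The untreated library held diaphyses plus adjacent muscle, and the other held femoral calluses after surgical fracture, both taken 3 weeks after surgery and sorted for tdTomato after collagenase digestion. Tissue of 3 littermates was pooled per library, so each condition has 1 library, the conditions could not be tested against each other, and condition and library cannot be told apart. The tdTomato transcript was not analysed here, so whether the members carried it or passed the sort without it was not tested. The study reported no meaningful tdTomato in the hematopoietic populations of its data and regarded them as artifacts of the sort. The shares of 0.580% and 6.49% are of cells that passed this gate and can be set by it, and are not shares of the tissue. The files held 1872 intact and 3987 callus barcodes with 12112002 and 36714322 UMIs, of which 665 and 692 barcodes did not meet the cell limits. *Xist*, the RNA that coats the inactive X, had a UMI in 7 of 7 intact and 206 of 214 callus members although the mice are described as male, and 4 Y-linked genes had 0 UMIs in members. *Clec3b*, whose promoter drives the Cre, had 2 UMIs in the members of each library. In callus this was 0.267 CPM (a gene's UMIs summed over a group of cells and scaled to 1000000 UMIs in all), against 835 CPM in stromal cells.

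By median the members held more UMIs than any of the 4 populations they were compared with. Intact members held 18477 to 55475 UMIs, with a median of 30776. Callus members held 758 to 65422, with a median of 34000.5, and their median of 5378 genes compares with 2008 in immature neutrophils and 1477.5 in B-lineage cells of the same library. Only 11 callus members were under 10000 UMIs. The 4 chosen genes took a median of 2.49% of UMIs in intact members (range 1.31 to 4.49) and 3.19% in callus members (1.04 to 7.31).

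The threshold lay on a slope of this share and not in a gap. In callus, 23 kept cells lay between 0.75% and 1% and 17 between 1% and 1.25%. The callus cells just inside had 1.04, 1.06 and 1.07%, and those just outside had 0.983, 0.965 and 0.960%. In the intact library the nearest cells were at 1.31% inside and 0.812% outside. Most kept cells lay far below, with 78.5% of callus and 96.2% of intact cells under 0.02%.

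**Figure D1:**
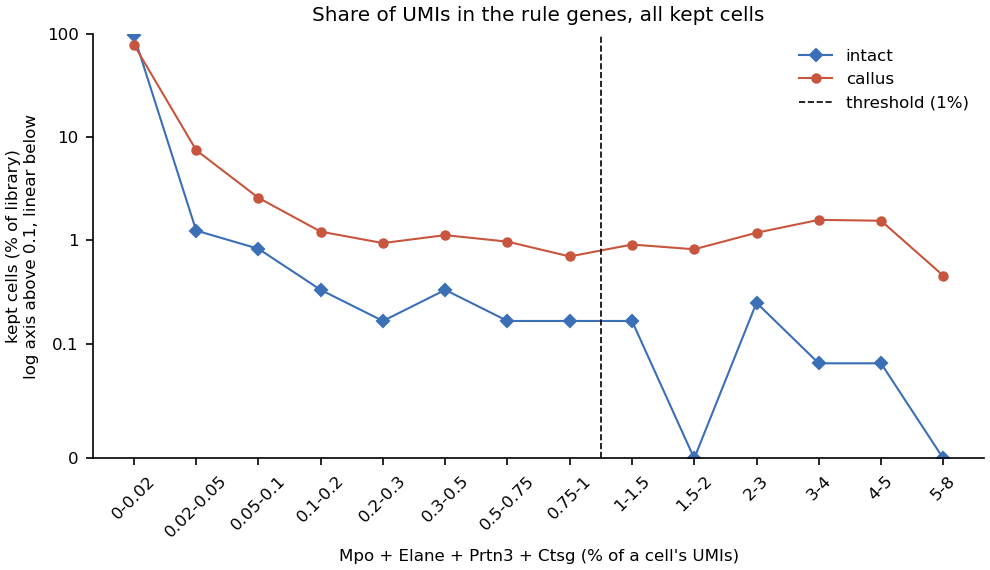
Share of kept cells of each library (y axis, %, log above 0.1 and linear below) by the percent of a cell's UMIs in *Mpo*, *Elane*, *Prtn3* and *Ctsg* (x axis, bins of unequal width). The dashed line is the 1% threshold. Heights can be compared only between bins of the same width, and of those 1% wide the callus bins 3 to 4 and 4 to 5 hold 52 and 51 cells against 39 in the bin 2 to 3, while the 7 intact members spread over 1.31 to 4.49%.

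The label was checked against 8 markers that did not enter the choice. *Kit*, the receptor for stem cell factor, had 120 CPM in intact and 124 CPM in callus members, against 15.4 CPM in callus B-lineage cells and 1.80 in callus monocytes. *Fcgr3*, which encodes CD16, had 157 and 188 CPM, and *Fcgr2b*, which encodes CD32, had 91.1 and 67.1 CPM. The factors *Spi1* (PU.1) and *Cebpa*, both needed to form GMPs, had 253 and 251 CPM and 45.5 and 67.3 CPM. *Cd34*, a surface sialomucin of progenitors, had 53.8 and 55.6 CPM. *Cd27* was low, at 20.7 and 17.7 CPM, and *Flt3*, the receptor of earlier multipotent and lymphoid progenitors, had 2 UMIs in intact and 10 in callus members. *Ly6a*, which encodes SCA1, had 1 and 15 UMIs. Markers of stem cells and of lymphoid, erythroid and megakaryocytic progenitors were near 0, and the list of 12 such genes summed to 24.8 CPM in intact and 20.3 CPM in callus members, against 812 CPM in callus B-lineage cells. Levels of the 8 markers together did not set the members apart from monocytes or stromal cells, since they summed to 749 CPM in intact and 771 CPM in callus members, against 812 and 806 in monocytes and 1209 and 719 in stromal cells. Of the markers with enough UMIs, 1 of 5 was 2-fold or more higher in members than in monocytes in both libraries, and 1 of 4 higher than in immature neutrophils. Over all tested genes the shares were 6.51% and 26.8%, so nothing is read from these counts. *Cd34* was restricted to a subset, as given below. The label is thus borne out for part of the cells only, and the cells are called members, after the rule that chose them.

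Among callus members thinned to 19000 UMIs each (193 of 214 were deep enough, as were 6 of 7 intact members), *Fcgr3* was carried by 94.8%, *Kit* by 83.9%, *Cebpa* by 65.8% and *Cd34* by 32.1% (25.6 to 39.2). Without thinning, *Cd34* was carried by 40.7% of callus members. Thinned to 2000 UMIs, *Cd34* was carried by 10.4% of callus members, 0.882% of B-lineage cells and 0.354% of immature neutrophils. Free RNA was not measured, and its part in these shares was not tested. Among intact members thinned to 19000 UMIs, 4 of 6 carried *Cd34* and 5 of 6 *Kit*.

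Markers of other cell types were mostly at low levels in the members. The B-lineage list of 10 genes summed to 41.4 CPM in intact and 99.2 CPM in callus members, where callus B-lineage cells had 14033. The T and NK list summed to 4.14 and 4.40 CPM, the dendritic list to 20.7 and 23.8, and the stromal list to 33.1 and 53.0 against 118721 in callus stromal cells. The erythroid and megakaryocytic list, mostly globins, summed to 348 and 456 CPM, against 10247 in callus B-lineage cells, and its median over callus members was 113 CPM, with 37478 in the highest cell. The mature neutrophil list summed to 149 and 255 CPM against 4661 in callus immature neutrophils. In all, 29 callus members also met the rule used here for immature neutrophils (*Camp*, *Ngp* and *Ltf* at 1% or more of UMIs), 76 met that for monocytes (*Ly6c2*, *Ms4a6c*, *F13a1* and *Ccr2* at 0.2% or more), 1 met the stromal rule and 0 the B-lineage rule. The same counts for intact members were 1, 3, 0 and 0.

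Myeloperoxidase, encoded by *Mpo*, makes hypochlorous acid from peroxide and chloride. *Elane*, *Prtn3* and *Ctsg* encode the serine proteases neutrophil elastase, proteinase 3 and cathepsin G. *Prtn3* (chromosome 10, 79874476 to 79883174, plus strand, GRCm38) and *Elane* (79886247 to 79888215, plus strand) are neighbours 3072 bases apart. *Cfd*, the next serine protease gene 2637 bases beyond *Elane*, was almost silent in the members, at 0.507 to 0.999 CPM in the 4 callus groups defined below. *Mpo* lies on chromosome 11 (87793581 to 87804413, plus strand) and *Ctsg* on chromosome 14 (56099881 to 56102574, minus strand), near the mast cell and basophil protease gene *Mcpt8*.

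The sequences before the first exon of these 4 genes are shown because the genes define the cells and are classical targets of PU.1, C/EBP and MYB factors. They are from RefSeq on GRCm38.p6, which held all 4 symbols, and stop where the first annotated exon begins, so their lengths differ (47, 185, 197 and 250 bases). Capitals mark GAGGAA, the core letters of a PU.1-type site. The coordinates are chr11:87793534-87793580 (plus strand) for *Mpo*, chr10:79886062-79886246 (plus) for *Elane*, chr10:79879417-79879613 (plus) for *Prtn3* and chr14:56102575-56102824 (minus) for *Ctsg*. The *Prtn3* window lies within the longer gene body given above, before the RefSeq start.
Mpo: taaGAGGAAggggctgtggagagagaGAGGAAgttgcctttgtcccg
Elane: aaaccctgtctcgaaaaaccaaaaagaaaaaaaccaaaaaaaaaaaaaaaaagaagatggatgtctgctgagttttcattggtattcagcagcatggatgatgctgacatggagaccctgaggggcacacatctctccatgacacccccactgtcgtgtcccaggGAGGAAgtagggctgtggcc
Prtn3: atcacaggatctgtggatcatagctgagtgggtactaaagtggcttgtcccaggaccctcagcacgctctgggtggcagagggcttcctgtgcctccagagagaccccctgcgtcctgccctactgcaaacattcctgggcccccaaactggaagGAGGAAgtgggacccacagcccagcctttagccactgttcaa
Ctsg: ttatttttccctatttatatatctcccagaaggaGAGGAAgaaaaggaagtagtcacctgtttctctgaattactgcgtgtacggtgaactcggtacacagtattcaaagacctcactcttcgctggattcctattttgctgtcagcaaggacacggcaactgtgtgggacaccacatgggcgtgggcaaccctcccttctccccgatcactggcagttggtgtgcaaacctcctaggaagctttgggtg
Each of the 4 full windows of 250 bases before the RefSeq start held GAGGAA on either strand, as did 23.3% of 32851 RefSeq promoter windows of that length. GAGGAAGT, a longer form that contains both GAGGAA and GGAAGT, was found for *Mpo*, *Elane* and *Prtn3* and in 2.44% of all windows. GGAAGT was found for all 4 (19.7% of windows), as was the MYB-type motif AACNG (74.2%). For *Mpo* and *Elane* all AACNG matches lie past the end of the bases shown, after an annotated exon has begun. The C/EBP-type motif TTNNGNAA was found for none of the 4 and in 36.8% of windows. These are matches of letters and not measured binding sites.

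The level of the 4 genes set the membership and is given as a description. *Elane* had 7713 CPM in intact and 10800 CPM in callus members, with single callus cells from 338 to 35237 CPM and a median of 10565. *Prtn3* had 8321 and 9417 CPM (callus cells 1234 to 19553, median 9063). *Mpo* had 5121 and 6179 CPM (callus cells 627 to 16523, median 6481). *Ctsg* had 4906 and 5286 CPM (callus cells 0 to 14068, median 4606). Every callus member carried the first 3 genes and 99.5% carried *Ctsg*. Intact cells overlapped with callus cells for each gene, with medians of 7192 CPM for *Elane*, 6471 for *Prtn3*, 4326 for *Mpo* and 4537 for *Ctsg*.

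**Figure D2:**
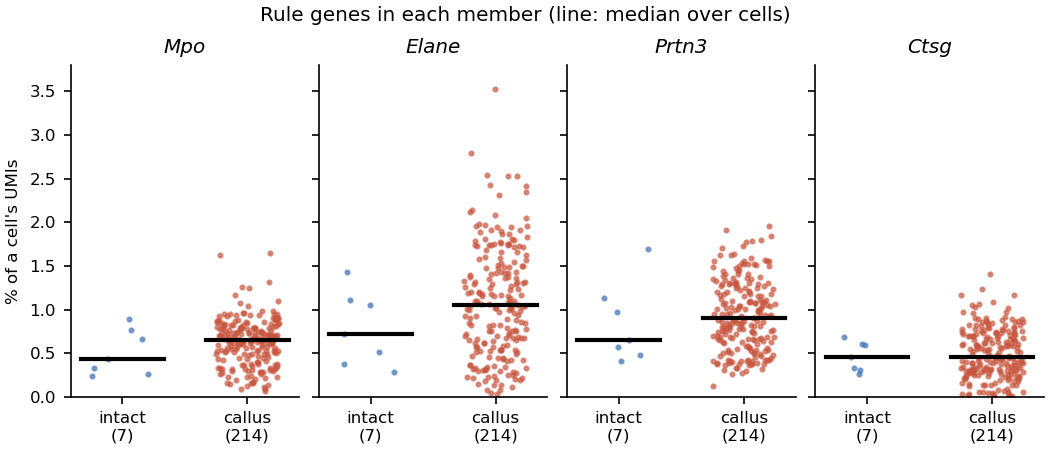
Percent of each cell's UMIs (y axis) from *Mpo*, *Elane*, *Prtn3* and *Ctsg* in the 7 intact and 214 callus members, 1 point per cell, with the median as a line. Intact and callus cells overlap for each gene, and *Elane* has the widest spread in callus, up to 3.52%.

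The 4 genes did not vary as a block. Over the 214 callus members, which share 1 library, the Spearman correlation of CPM was highest for the neighbours *Elane* and *Prtn3*, at 0.80, and lowest for *Elane* and *Ctsg*, at 0.43. *Mpo* had correlations of 0.58 with *Elane*, 0.64 with *Prtn3* and 0.63 with *Ctsg*, and *Prtn3* with *Ctsg* had 0.53. All 6 values come from cells chosen on the sum of these genes.

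Other proteins of the primary granule and its handling were abundant in the members. *Srgn*, encoding the proteoglycan serglycin that binds granule proteases, had 2761 CPM in intact and 3526 CPM in callus members. *Ms4a3*, a membrane protein gene typical of GMPs, had 1043 and 1484 CPM against 2.62 CPM in callus B-lineage cells. *Prss57*, another granule serine protease, had 224 and 303 CPM. *Plac8* had 3366 and 3330 CPM. *Nkg7* and the granule membrane tetraspanin *Cd63* had 534 and 813 CPM and 451 and 782 CPM. *Ctsc*, encoding the peptidase that activates elastase, cathepsin G and proteinase 3, was low, at 29.0 and 43.4 CPM, against 602 CPM in callus monocytes. *Cst7*, which encodes the CTSC inhibitor cystatin F, had 91.1 and 222 CPM. *Serpinb1a*, an inhibitor of the granule proteases, had 563 and 769 CPM. *Lyz2* (lysozyme) had 431 and 789 CPM, far under the 10039.7 CPM of callus immature neutrophils.

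The highest genes of the members, leaving out mitochondrial and ribosomal protein genes, also held *S100a8* and *S100a9*, which encode the subunits of calprotectin. *S100a8* had 10706 CPM in intact and 14540 CPM in callus members, but its callus median over cells was 1518 CPM and its maximum 122730. For *S100a9* the sums were 6508 and 11990 CPM, the callus median 156 and the maximum 128267. Both sums therefore rest on a minority of cells. The other leading genes besides the 4 chosen ones were *Tmsb4x* (thymosin beta 4, 7551 and 9291 CPM), *Ptma* (7920 and 6155), *Ppia* (5837 and 5077) and *Fau* (5349 and 4578).

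This spread was followed by ordering the 214 callus members by the share of UMIs in a list of 22 secondary and tertiary granule genes and dividing them into granule groups 1 to 4 of 54, 53, 53 and 54 cells. The list includes the calprotectin genes *S100a8* and *S100a9*, which held 108955 and 89843 of its 269940 UMIs in callus members. Most UMIs of the list thus come from these 2 genes, and the granule share is a share of the list as a whole. The median share was 0.0692% in group 1, 0.197% in group 2, 1.03% in group 3 and 14.3% in group 4. Close to the 3 limits lay 7, 6 and 4 cells, within 1.1-fold of each. Median depth was 36650.5, 38069, 34045 and 29945.5 UMIs. All 29 members that met the immature neutrophil rule were in group 4. The listed genes themselves follow by construction, those with most UMIs above all, so their values are a description and give no order of onset. *Fcnb* (ficolin B) had 4.49, 39.5, 321 and 1687 CPM from group 1 to group 4, and *S100a8* had 76.3, 503, 7401 and 54839. *Camp* (cathelicidin) had 14.5, 22.8, 95.5 and 17963 CPM and *Ngp* 11.97, 11.14, 29.6 and 5987. *Ltf* (lactoferrin) had 3.49, 5.06, 2.79 and 203 CPM, still far below the 6286 CPM of callus immature neutrophils. *Fcnb* and *S100a8* were higher in group 3 than in group 1, whereas *Ltf* had 5 UMIs in group 3, too few to place it.

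For genes outside the list, CPM was scaled to the UMIs outside the list. *Cd34* had 169 CPM in group 1 (152 to 188), 35.0 in group 2, 2.26 in group 3 and 3.37 in group 4 (1.096 to 7.87). *Sox4*, a progenitor transcription factor, had 126, 37.0, 15.3 and 2.70 CPM, and *Hoxa9*, a homeobox factor of early progenitors, had 32.5, 8.12, 3.96 and 1.35. *Myc*, which drives growth, had 128, 78.1, 70.7 and 22.9 CPM. These genes were each lowest or near lowest where granule genes were highest. *Kit* differed less, with 157, 138, 127 and 77.6 CPM, and *Cebpa* had 86.4, 65.5, 60.5 and 64.1. *Cebpe*, the factor required for secondary granules, had 85.9, 143, 242 and 541 CPM, and was already carried by 64.8% of the cells of group 1. *Gfi1*, a repressor of monocyte genes, had 36.9, 67.0, 106 and 93.8 CPM.

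The primary granule genes reached their highest levels at different points of this order. *Mpo* was highest in group 3, with 5221, 6090, 8311 and 6174 CPM, and *Ctsg* likewise, with 4298, 6142, 7348 and 3984. *Elane* had 5354, 9380, 15748 and 16112 CPM, and *Prtn3* 5872, 8947, 13320 and 11893. *Ctsg* in group 4 was thus under its level in group 1, while *Elane* was 3.01 times its level in group 1. *Serpinb1a* was highest in group 4, with 394, 507, 854 and 1662 CPM, as was *Cd63*, with 367, 628, 1057 and 1365. The inhibitor gene *Cst7* had 159, 230, 315 and 223 CPM, and *Ctsc* had 47.9, 79.7, 35.6 and 6.07. *Calr*, which encodes the chaperone calreticulin that binds the MPO precursor, ran the other way, with 1778, 1527, 1161 and 768 CPM.

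The machinery of growth was lower towards group 4. The list of ribosome biogenesis genes summed to 7684, 6070, 5124 and 3327 CPM, led by *Npm1* (nucleophosmin) with 2966, 2334, 1776 and 1176. Ribosomal protein genes summed to 303208, 289974, 282580 and 249477 CPM. Protein folding genes of the endoplasmic reticulum summed to 11349, 11517, 10895 and 8292 CPM. Cell division did not follow the same course, as *Mki67* had 231, 287, 263 and 516 CPM and the G2/M list 2560, 3117, 2332 and 4347. The NADPH oxidase genes outside the granule list, which make the respiratory burst, summed to 845, 1207, 1801 and 3569 CPM.

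Across the 214 callus members the granule share had a Spearman correlation of 0.89 with the NADPH oxidase list, 0.84 with *Serpinb1a*, 0.76 with *Cebpe* and 0.70 with *Elane*. It was -0.77 with *Cd34*, -0.75 with the ribosome biogenesis list and -0.63 with *Sox4* and *Calr*, and near 0 with *Ctsg* (-0.07). The correlation with depth was -0.19. The order of the 3386 genes tested in 193 cells thinned to 1 depth was examined as well, and the genes named from it were chosen after their values were seen. The most positive were *Tmsb4x* (0.91), *Arhgdib* (0.87), *Clec4a2* (0.87), *Dstn* (0.86), *Prdx5* (0.86) and *Cyba* (0.86), which include the actin regulators thymosin beta 4 and destrin and the p22phox subunit of the oxidase. The most negative were *H2afy* (-0.78), *Npm1* (-0.75), *Lgals1* (-0.73), *Hsp90ab1* (-0.73), *Nme2* (-0.73) and *Gas5* (-0.72). *Tmsb4x* went from 4966 CPM in group 1 to 18696 in group 4, and *H2afy*, which encodes the histone variant macroH2A1, from 1585 to 586.

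**Figure D3:**
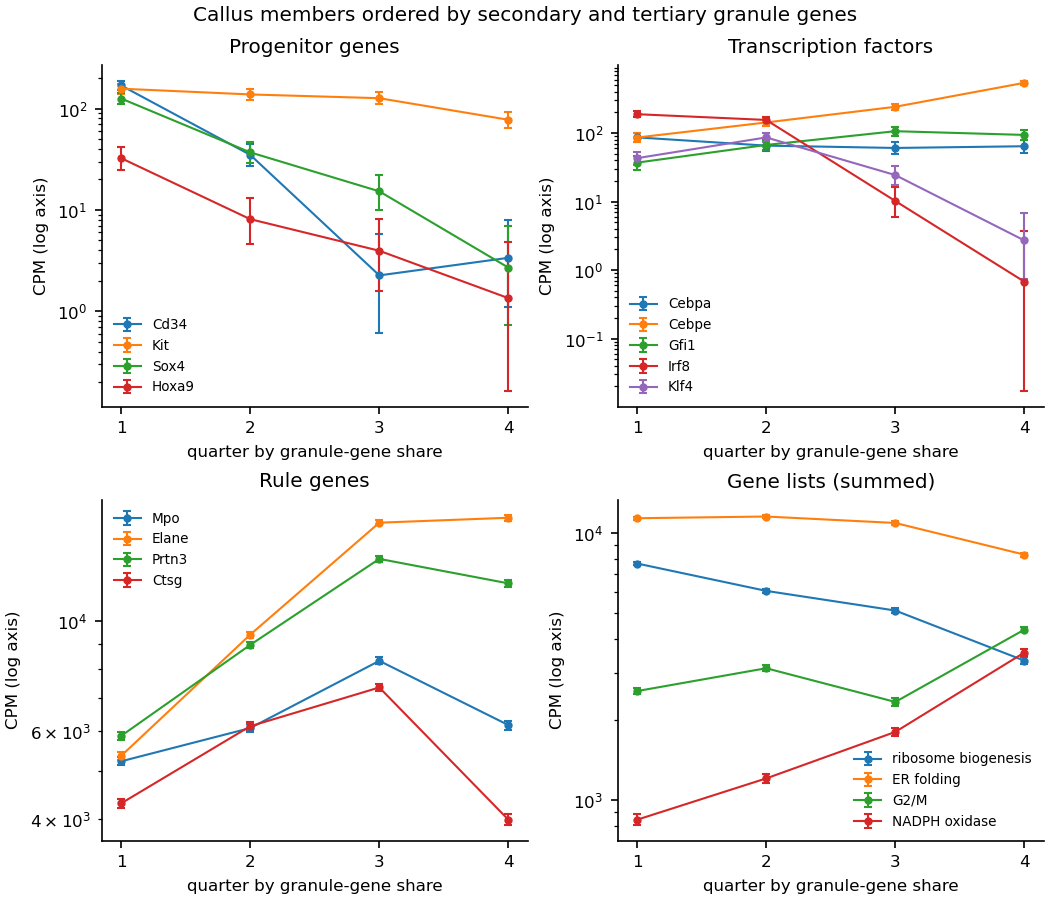
CPM (y axes, log) of progenitor genes, transcription factors, the 4 chosen genes and summed gene lists in the callus members divided into 4 groups by their share of UMIs in secondary and tertiary granule genes (x axes, group 1 lowest, group 4 highest, 53 or 54 cells each). The granule list includes *S100a8* and *S100a9*, which hold most of its UMIs. Bars are exact 95% Poisson intervals. *Cd34* is at 169 CPM in group 1 and 3.37 in group 4, *Cebpe* at 85.9 and 541, and *Mpo* and *Ctsg* peak in group 3.

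*Irf8*, which encodes a factor needed for monocytes and dendritic cells, also differed among the members, in part along the same order. It had 188 CPM in group 1, 155 in group 2, 10.2 in group 3 and 1 UMI in group 4, and a Spearman correlation of -0.58 with the granule share. *Klf4*, another monocyte factor, had 42.9, 86.3, 24.3 and 2.70 CPM, and *F13a1*, a gene of monocytes and their precursors, had 223, 237, 117 and 41.8. *Csf1r*, the receptor for M-CSF, had 24.97, 23.34 and 7.35 CPM and 1 UMI. These 4 genes were lowest in group 4. *Ly6c2*, which encodes the surface antigen Ly-6C, did not follow them, with 761, 1549, 1792 and 1780 CPM, nor did the monocyte-lineage list as a whole, which summed to 2257, 2972, 2382 and 1987 CPM and had a Spearman correlation of 0.02 with the granule share. The monocyte rule was met by 19, 22, 24 and 11 cells of the groups.

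Of the 193 thinned callus members, 52 (26.9%) had an *Irf8* UMI and 141 had none. *Cebpe* was carried by 44.2% of the first (30.5 to 58.7) and 92.2% of the second (86.5 to 96.0). *Gfi1* was carried by 36.5% and 73.8%. The reverse held for *Csf1r*, at 51.9% and 5.67%, *Klf4*, at 44.2% and 5.67%, and *Cd34*, at 61.5% and 21.3%. *Csf3r*, the receptor for G-CSF, differed less, at 53.8% (39.5 to 67.8) and 70.9% (62.7 to 78.3). At 2000 UMIs per cell, *Irf8* was carried by 13.2% of callus members, 0.463% of stromal cells and 0.708% of immature neutrophils.

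Summed over the full counts of these cells, the secondary and tertiary granule list had 5088 CPM with *Irf8* and 45291 without. The split by *Irf8* is thus not separate from the granule order, and the values below differ along both. *Elane* had 6024 CPM with *Irf8* and 13173 without, and *Ms4a3* had 847 and 1809. *Cd63* had 244 and 1009 CPM, *Prss57* 152 and 379, and *Serpinb1a* 393 and 943. The primary granule list summed to 11681 CPM with *Irf8* and 16886 without. *Ctsc* ran the other way, with 104 CPM with and 22.4 without, and *Lyz2* (818 and 736) and *Calr* (1455 and 1321) were slightly higher with *Irf8*. *F13a1* had 407 and 67.9 CPM. Immediate-early genes, which also respond to tissue digestion, summed to 3201 and 1470.5 CPM, and interferon response genes to 971 and 668. *Alas1*, which encodes the first enzyme of heme synthesis, had 217 and 356 CPM. *Mki67* (315 and 315) and *Kit* (117 and 135) were close in both.

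Across the 214 callus members *Irf8* had Spearman correlations of 0.67 with *Csf1r*, 0.61 with *F13a1* and 0.57 with *Klf4*. They were -0.72 with *Cd63*, -0.69 with *Cebpe*, -0.67 with *Ms4a3* and -0.49 with *Gfi1*. With depth the value was -0.02. Because the sum of the 4 chosen genes set membership and had a correlation of -0.56 with *Irf8*, cells with *Irf8* were nearer to the threshold, and fewer were left at a stricter one (17.6% with *Irf8* at a rule of 2%).

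The 7 intact members spanned the same differences. The pair of cells with *Irf8* (0.0709% and 0.0650% of UMIs) had the lowest shares of the 4 chosen genes, 1.37% and 1.31%, where the others had 2.20 to 4.49%. Both carried *Cd34*, *Csf1r* and *Klf4* and neither carried *Cebpe* or *Gfi1* at 19000 UMIs, while the other 4 thinned cells all carried *Cebpe*. The granule share was 0.0583 and 0.0585% in this pair, 0.0941 and 0.112% in 2 cells, 1.41 and 2.16% in 2 more and 18.7% in the last, which had no *Cd34* UMI and met the immature neutrophil rule.

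**Figure D4:**
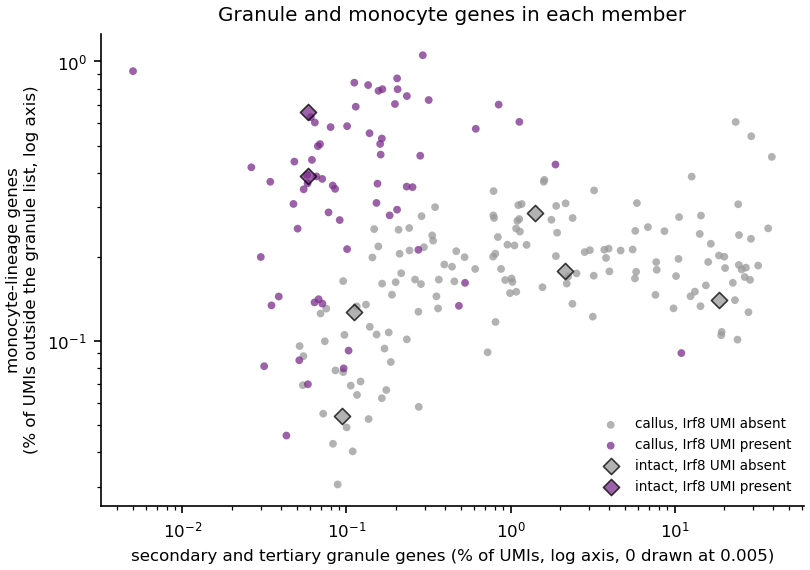
Percent of UMIs in the secondary and tertiary granule list (x axis, log, 0 drawn at 0.005) and in the monocyte-lineage list, out of UMIs outside the granule list (y axis, log), for each member. The granule list includes *S100a8* and *S100a9*. Circles are the 214 callus and diamonds the 7 intact members, filled purple where the cell had an *Irf8* UMI. Purple cells lie mostly to the left, at low granule shares, and both intact cells with *Irf8* lie among them.

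Other regulators and receptors were present at moderate levels. *Myb*, which keeps progenitors dividing, had 397 CPM in intact and 484 CPM in callus members, and *Runx1* had 74.5 and 73.0. *Csf2ra*, the GM-CSF receptor chain, had 166 and 151 CPM, *Csf3r* 49.7 and 58.6, and *Csf1r* 29.0 and 14.7. *Ifngr1* had 464 and 391 CPM and *Cd47*, the signal against phagocytosis, 571 and 529. *Gfi1b*, *Irf4* and *Mycn* had 0 UMIs in the members.

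The members carried cycle transcripts in most cells. *Mki67* had 157 CPM in intact and 301 CPM in callus members and was carried by 89.6% of thinned callus members (84.4 to 93.5), and *Top2a* had 348 and 367 CPM. The G2/M list took 0 to 0.917% of a callus member's UMIs, with a median of 0.204%. Of the genes of S phase entry, *Pcna* had 178 and 225 CPM, *Mcm6* 277 and 190 and *Dut* 455 and 435. *Alas1* led the heme synthesis list, with 460 and 304 CPM, against 11.4 in callus B-lineage cells. The endoplasmic reticulum chaperones *Hsp90b1* and *Hspa5* had 915 and 1020 CPM and 625 and 795.

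Transcripts of eosinophils, basophils and mast cells were concentrated in few callus members, which were singled out after their values were seen. *Prg2*, encoding eosinophil major basic protein, had 625 UMIs, of which 616 were in 3 cells and 425 in 1 of them. *Prg3* had 135 UMIs and *Epx*, the eosinophil peroxidase gene, 37 UMIs. For *Cpa3*, a mast cell and basophil carboxypeptidase gene, 247 of 273 UMIs were in 10 cells. *Mcpt8*, a basophil protease gene, was more widespread, with 23.2 CPM over all callus members and 37.9% of them carrying it. No intact member had 10 or more UMIs of *Prg2* or *Cpa3*, and 7 cells cannot show a subset of this size.

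The members were compared with immature neutrophils of the same library (193 intact and 575 callus cells that met the immature neutrophil rule, were no members and met no other rule). Since both groups were chosen by expression, these are descriptions. Of 5540 genes with at least 20 UMIs over both groups in each library, 1484 (26.8%) were 2-fold or more higher in members in both libraries and 621 (11.2%) were lower. A gene can reach this limit through the group where it is high, so the counts favour genes that differ. Of 20 ribosome biogenesis genes, 13 had enough UMIs and all 13 were higher in members. Their median log2 ratio was 5.50 in intact and 3.58 in callus, where the median of all tested genes was 0.64 and 0.36. Of 20 endoplasmic reticulum folding genes 18 were higher (medians 2.96 and 2.38), and of 17 primary granule genes 9 were higher and 1 lower. In the other direction, 21 of 22 secondary and tertiary granule genes and 5 of 6 NADPH oxidase genes were lower. The granule list includes *Camp*, *Ngp* and *Ltf*, which chose the immature neutrophils, so the result for these genes was set by the choice. For the cycle, 8 of 19 G1/S genes were higher and 0 of 24 G2/M genes differed in both libraries.

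*Ctsg* and *Mpo*, which helped to choose the members, had the highest ratios over immature neutrophils. Next were *Ass1*, *Mettl1*, *Fkbp11*, *Cst7*, *Gnl3* and *F13a1*. *Ass1*, an enzyme of arginine synthesis, had 52.4 CPM in callus members and 0.706 in callus immature neutrophils. *Mettl1*, a tRNA methyltransferase, had 63.3 and 1.27 CPM, *Fkbp11*, an isomerase of the secretory pathway, 52.4 and 0.282, and *Gnl3*, the nucleolar protein nucleostemin, 147 and 3.81. *Cst7* had 222 and 5.50 CPM and *F13a1* 158 and 4.23. In the intact library these 6 genes had 20 to 39 UMIs in the 7 members and 0 in immature neutrophils. They therefore reached the limit of 20 UMIs there through the members alone. The lowest ratios were those of *Mmp8*, neutrophil collagenase, with 4.14 and 640 CPM in callus, *Ltf* (49.6 and 6286), the gelatinase gene *Mmp9* (6.27 and 597), *Ifitm6* (26.3 and 1721) and *Thbs1* (5.74 and 332).

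Against monocytes (74 intact and 446 callus cells), 348 of 5342 genes (6.51%) were 2-fold or more higher in members in both libraries and 961 (18%) were lower. Here too a gene can reach the limit of UMIs through the group where it is high. Of 15 ribosome biogenesis genes 12 were higher and of 18 primary granule genes 10 were higher and 4 lower. Lower in members were 15 of 18 inflammatory genes, 14 of 15 interferon response genes, 15 of 18 immediate-early genes and 15 of 17 monocyte-lineage genes. The last list includes *Ly6c2*, *Ms4a6c*, *F13a1* and *Ccr2*, which chose the monocytes. The median log2 ratio of all tested genes was -0.12 in intact and -0.08 in callus. *Ms4a3* had 1484 CPM in callus members and 13.5 in callus monocytes, *Prss57* 303 and 2.03, *Kit* 124 and 1.80 and *Elane* 10800 and 233. *Mpo*, *Camp*, *Fkbp11* and *Gm1604a* completed the highest 8. *Elane* and *Mpo* helped to choose the members, so their ratios were set in part by the choice. The lowest were *Cd74*, the MHC class II invariant chain, with 10.1 and 2859 CPM, *Retnla*, with 1 UMI and 526 CPM, the interferon-induced *Ifi27l2a* (9.61 and 1183), the chemokine *Ccl6* (5.60 and 622) and the class II gene *H2-Aa* (2.80 and 1133).

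**Figure D5:**
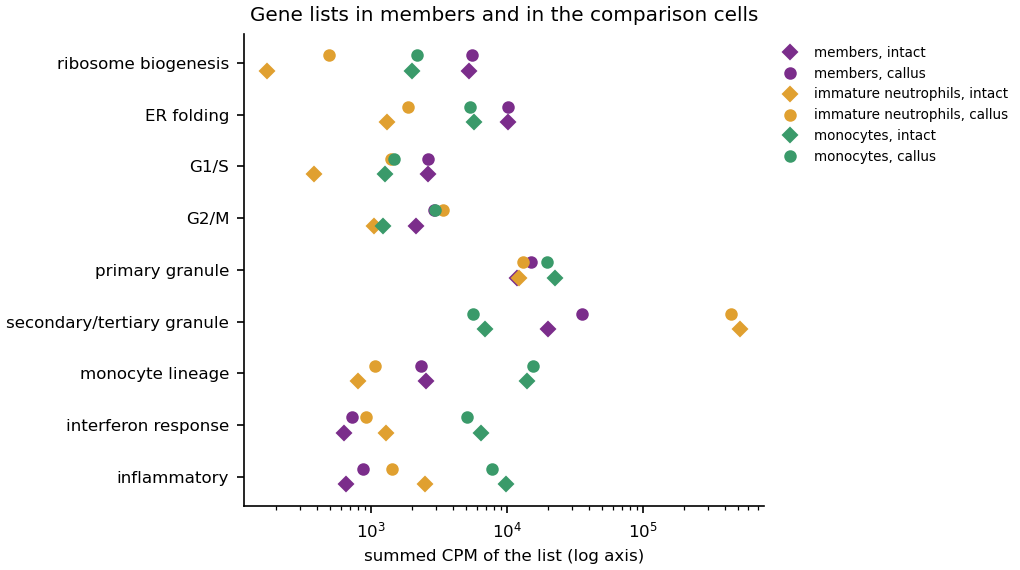
Summed CPM (x axis, log) of 9 gene lists in members (purple), immature neutrophils (orange) and monocytes (green) of the intact (diamonds) and callus (circles) library. In callus, members are at 5517 CPM for ribosome biogenesis, where immature neutrophils are at 493 and monocytes at 2196, and at 875 for the inflammatory list, where monocytes are at 7774.

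The last comparison, callus over intact members, sets 214 cells with 7493451 UMIs against 7 cells with 241544 UMIs, so the intact side limits it. Of 9839 genes with at least 20 UMIs over both, 967 (9.83%) were 2-fold or more higher and 561 (5.7%) lower in callus. A gene with 20 UMIs in all is expected at under 1 UMI in the intact members, where counting error alone can pass 2-fold, so nothing is read from these 2 counts. A second limit, added after seeing the data, was at least 25 expected intact UMIs at the pooled level. Under it 26 of 1358 genes (1.91%) were higher and 10 (0.736%) lower, with a median log2 ratio of 0.04. Most pooled UMIs are from callus, so genes high in callus pass this limit more easily. *Chil3* passed it with 1 intact UMI, and *Yae1d1* with 50 did not. The balance of higher and lower genes is therefore not read either. Of the 8 GMP markers 7 had enough UMIs and 0 were 2-fold apart, nor was any of the 4 chosen genes, whose log2 ratios were 0.11 to 0.49. Of the 18 primary granule genes, *Cst7* (1.28) and *Ctsd* (1.47) were higher and 0 were lower, beside 9.83% and 5.7% of all genes at the limit of 20 UMIs.

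Secondary and tertiary granule genes stood out in this comparison, and their level differed as widely within each library. Of 20 tested genes, 11 were higher in callus and 0 lower, against 9.83% and 5.7% of all tested genes. Their median log2 ratio was 1.28. With at least 25 expected UMIs, a limit that favours genes high in callus, 7 of 12 were higher, against 26 of all 1358 genes. *Camp* had 824 CPM in intact and 4166 CPM in callus members, *Ngp* 157 and 1391, *Fcnb* 95.2 and 477 and *Lcn2* 49.7 and 331. *Chil3*, a chitinase-like protein gene, had 1 UMI in intact members and 3101 UMIs (414 CPM) in callus. Over cells the list took 583, 1118 and 186827 CPM in intact (lowest, median, highest) and 0, 3501 and 391235 in callus. The sum in each library thus rests on its cells with many granule transcripts, of which intact had 1.

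Of the regulators, *Irf8* had 199 CPM in intact (147 to 263) and 93.7 CPM in callus members (86.9 to 101), with a log2 ratio of -1.08, where 2 intact cells held the intact UMIs. Immediate-early genes summed to 2886 and 1864 CPM, a log2 ratio of -0.63, but intact cells had a median of 1929 CPM and a highest value of 11275, so the sum leans on 1 of 7 cells. Among them *Atf3*, a stress-induced factor, had 195 and 16.9 CPM, with 45 of its 47 intact UMIs in 1 cell. The other lowest ratios were those of *Yae1d1* (207 and 18.0 CPM, 46 of 50 intact UMIs in 1 cell), *Klrb1f* (70.4 and 8.81, 13 of 17 in 1 cell), the histone genes *Hist1h4c*, *Hist1h2br*, *Hist1h2bn* and *Hist1h3f* (70.4 to 161 CPM in intact, 10.5 to 25.6 in callus) and *AY036118* (700 and 116). *AY036118* was lower in callus in the other populations too, with 942 and 99.9 CPM in immature neutrophils and 1321 and 152 in stromal cells, so the difference is not limited to the members. In B-lineage cells the histone genes named above were lower in callus as well, with 58.05 to 92.26 CPM in intact and 13.97 to 27.36 in callus. Other populations were mixed. In monocytes *Hist1h2br* had 32.8 and 7.89 CPM, but *Hist1h3f* was higher in callus (9.37 and 13.31), as it was in immature neutrophils (17.77 and 21.87). The highest ratios besides *Chil3* and *Ngp* were those of *Gsn*, *Traf7*, *Ppp1r12c*, *Fryl*, *Tprgl* and *Epb41*, each with 1 UMI in intact members and 34.4 to 44.8 CPM in callus. For a single UMI the exact interval runs from 0.105 to 23.1 CPM, so the size of these 6 ratios is not determined. G2/M genes had a median log2 ratio of 0.50, with 5 of 24 higher, among them *Ube2c* (1.36) and *Aurka* (1.62). The interferon list had 1 of 12 genes higher and 0 lower, and the inflammatory list 3 of 17 higher and 2 lower. At the limit of 20 UMIs used for these lists, 9.83% of all tested genes were higher and 5.7% lower. With at least 25 expected intact UMIs, 2 of 10 G2/M genes were higher. At that limit 0 of 1 interferon and 0 of 2 inflammatory genes were 2-fold apart.

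Most other lists held few genes that were 2-fold apart. The calls named below use the limit of 20 UMIs, where counting error alone can pass 2-fold. At it 9.83% of all tested genes were higher and 5.7% lower, so nothing is read from the counts of these lists. With at least 25 expected intact UMIs, 0 of 7 transcription factors were higher and 1 was lower. At that limit 1 of 8 receptors and surface genes was higher, as was 1 of 5 NADPH oxidase genes. Of heme synthesis and ribosome biogenesis genes 0 of 1 and 0 of 11 were 2-fold apart. Among 29 tested myeloid transcription factors, *Id2* (2.29) and *Ets1* (1.34) were higher in callus and *Irf8*, *Klf2* (-1.15) and *Nr4a1* (-1.02) were lower. Among 22 receptors and surface genes, *Csf2rb* (1.59), *Il3ra* (1.18), which encode subunits of the IL-3 receptor, and *Spn* (1.31), which encodes CD43, were higher and 0 were lower. *Cybb*, the gp91phox subunit of the NADPH oxidase, was higher (2.03), as were *Urod* (1.10) and *Ppox* (1.50) of 11 heme synthesis genes and *Rrp12* (1.90) of 20 ribosome biogenesis genes. None of 24 G1/S genes and 20 endoplasmic reticulum folding genes was 2-fold apart either way. Transcripts of other cell types were also higher in callus members, but from few intact UMIs. The whole B-lineage list had 10 intact UMIs and the endothelial and muscle list 18, with 0 genes at 25 expected UMIs in either. They included *Cd79b* (1.13) and *Ighm* (1.18) of B cells, *Acta1* (2.63) and *Tnnc2* (1.42) of muscle, the globin *Hba-a2* (1.88), *Retnlg* (2.68) of mature neutrophils, and *Prg2*, *Prg3* and *Cpa3*, whose few carrying cells are described above. Their part in the differences between the libraries was not tested.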

How the data were processed

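Cells sorted for tdTomato were run on the 10x 3' V3 kit. The authors deposited raw UMI counts per gene and barcode for 32285 genes and 2 libraries. The files name Cell Ranger 6.0.0 and the submitters' processing notes give mm10. Members, gene lists and comparisons were chosen with earlier results of these data known. Counts were summed over cells and scaled to CPM over each group's total UMIs. A gene was called 2-fold apart from 20 UMIs over both groups, with a count of 0 set to 3 UMIs, and no test was possible. Neutrophil, monocyte, B-lineage (*Cd79a*, *Cd79b*, *Ebf1* at 0.2%) and stromal (*Col1a1*, *Col1a2*, *Col3a1*, *Dcn* at 0.5%) cells were set by UMI shares. Carriers were counted after thinning members to 19000 UMIs (percentile 10 of their depth, rounded down to a step of 500), or all cells to 2000 for comparison with other populations. Doublets were left in, and removal of the highest Scrublet scores (scanpy 1.11.5, 0.8% per 1000 cells) was an alternative. Named genes are the 4 chosen genes, the 8 highest and 8 lowest ratios between libraries (50 UMIs, carried by 25% of members of the higher library), the 8 highest and 5 lowest against other cells, the 4 highest and the 2-fold genes of each list, marker genes and the 10 highest genes. Positions are from GENCODE and promoters from RefSeq. The ratio calls were tested on simulated data. Tools were python 3.11.15, numpy 2.4.6, scipy 1.17.1, pandas 2.3.3 and matplotlib 3.10.9. The tdTomato transcript was not analysed here.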

Additional observations from a re-analysis of the deposited data

Results flagged for a closer look

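In callus, 21 of the 692 barcodes that failed the cell limits (3.03%, exact interval 1.89 to 4.60) also had *Mpo*, *Elane*, *Prtn3* and *Ctsg* at 1% or more of UMIs, above the 0.434% that a count of 3 would give. Of these, 19 had over 10% mitochondrial UMIs, 6 had under 500 genes and 4 had both. They held 515 to 10874 UMIs, with a median of 2898, and 28298 CPM of *Mpo*, 19755 of *Elane*, 15987 of *Prtn3*, 17178 of *Ctsg*, 355 of *Cd34* and 229 of *Camp*. They were in no comparison. In the intact library 2 of 665 such barcodes met the rule, below the level of 3 counts.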

How the results depend on the processing

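Of 117 alternative values over 18 results, 102 stayed the same, 15 moved and 0 reversed. Shares were judged by their interval, counts by a factor of 1.5 and correlations by the size of their change. Some values could hardly move. The median log2 ratio was already 0, so rescaling to it changed nothing, and carrier shares of thinned cells were identical under both other gene limits. The count of 102 therefore does not measure robustness. The callus share of members was 8.16% at a rule of 0.5% and 4.76% at 2%. *Cd34* carriers were 22.5% at a rule of 2%, 22.8% when counted from 2 UMIs, 40.7% without thinning and 9.91% at 2000 UMIs in a separate draw. *Irf8* carriers were 17.6% at a rule of 2% and 13.7% at 2000 UMIs, and *Mki67* carriers 79.8% from 2 UMIs and 34.4% at 2000. Genes lower in callus than intact members numbered 299 with at least 50 UMIs and 990 with no minimum. With at least 25 expected intact UMIs, a limit that favours genes high in callus, 10 were lower and 26 higher. Of the granule genes 7 were higher at that limit. Removing the highest Scrublet scores took 12 of 1207 and 87 of 3295 cells, with 0 and 4 members among them. No paired analysis was possible because each condition has 1 library. The 7 intact members limit every value between conditions, and the carrier shares depend on depth.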
